A study of Mus musculus with 9 samples.

Results

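The 10 genes described here belong to the *Atf4* stress response and to serine synthesis with its mitochondrial one-carbon branch. They are *Atf4*, *Ddit3*, *Atf3*, *Trib3*, *Asns*, *Sesn2*, *Phgdh*, *Psat1*, *Shmt2* and *Mthfd2*, chosen by name with earlier results of these data known. All 10 were found among the 15095 genes with reads. Expression was measured by mRNA sequencing in neonatal rat ventricular cardiomyocytes (NRVMs), primary heart muscle cells isolated from Sprague Dawley rats at 1 to 2 days of age, cultured for 48 h and then infected with adenovirus at a multiplicity of infection of 50. The virus carried LacZ (a bacterial enzyme used as control), Nrf1 or Nrf2, with 3 libraries per group, and RNA was collected 48 h after infection. All groups therefore shared the infection, and the coding regions were driven by the CMV promoter, which is not specific to cardiomyocytes, in a vector that also made a red fluorescent protein.

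Libraries held 7874461 to 11905658 reads in genes. The gene for Nrf2, *Nfe2l2*, stood at 67554 to 78772 normalised reads in the Nrf2 libraries. In these, reads of the mouse transgene and of the rat gene cannot be told apart. Levels were 3399 to 3493 in the LacZ libraries and 2815 to 2894 in the Nrf1 libraries. The gene for Nrf1 was not analysed here. Markers of cardiomyocytes were abundant in every group, with summed levels of 8 markers from 107727 to 149201 normalised reads, and markers of other cell types were present as well. The tables were deposited as group means, from which the reads of each library were recovered as whole numbers. Normalised reads are these reads divided by the size factor of the library, and the libraries of a group are named a, b and c by depth, with a the deepest.

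*Atf4* encodes a transcription factor of the integrated stress response. Kinases that sense unfolded protein, amino acid shortage, viral RNA or heme shortage phosphorylate the translation factor eIF2alpha, general translation falls, and the *Atf4* message is translated more, a step that read counts do not measure. Atf4 then binds C/EBP-ATF elements and raises genes for amino acid synthesis and uptake together with further stress regulators. Among its targets are the enzymes that make serine from a glycolytic intermediate and pass its carbon to folate in mitochondria, and in heart muscle this program is known as a response to mitochondrial dysfunction. Nrf1 and Nrf2 are related transcription factors that bind antioxidant response elements together with small Maf proteins.

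To show where such elements lie in this set, the promoters of the orthologous mouse genes were searched. The reads were aligned to the rat genome, but the promoter sequences at hand were those of the mouse, and rat promoters were not searched. All 10 genes matched RefSeq promoters of GRCm38.p6, 11 in number because *Psat1* has a pair, each running from 250 bases before to 50 after the annotated start. The letters TGATGNAA, the core of a C/EBP-ATF element, were sought on both strands and lay in the promoters of *Asns*, *Atf3* and *Trib3*, and in 3.97% of all 32851 promoters. The letters TGACNNNGC, the core of an antioxidant response element, lay in those of *Asns*, *Phgdh* and *Sesn2*, and in 12.4% of all. The matches did not overlap each other. The 30 bases around each match are given 5′ to 3′ on the strand of the gene, which is the minus strand for all 5 genes, with the matched letters in capitals and in reverse complement where the match lies on the opposite strand.
*Asns* (C/EBP-ATF core, chr6:7693214-7693243, from -23 to -16): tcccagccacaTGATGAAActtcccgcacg
*Atf3* (C/EBP-ATF core, opposite strand, chr1:191183425-191183454, from -110 to -103): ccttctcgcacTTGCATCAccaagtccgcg
*Trib3* (C/EBP-ATF core, opposite strand, chr2:152344028-152344057, from 15 to 22 after the start): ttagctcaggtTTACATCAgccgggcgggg
*Asns* (antioxidant core, opposite strand, chr6:7693362-7693391, from -172 to -164): tatcctgcctGCAGTGTCAcagcaccttaa
*Phgdh* (antioxidant core, opposite strand, chr3:98340003-98340032, from -53 to -45): gcccggggagGCGGAGTCAgcagagtttaa
*Sesn2* (antioxidant core, chr4:132510473-132510502, from -36 to -28): cgcagcgggcTGACAGAGCcgggcgagcgc

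To determine how the *Atf4* response and serine synthesis differed between NRVMs overexpressing Nrf1 or Nrf2 and those expressing LacZ, the groups were compared with limma over all 11597 genes above 1 CPM in at least 3 libraries, a filter that all 10 genes passed. Genes were called at a fold change above 1.5 and a Benjamini-Hochberg adjusted p under 0.05. With Nrf1, 9 of the 10 genes fell, and 16.6% of all genes tested were called lower. At any fold, all 10 were lower at the adjusted p, beside 32.2% of all genes, and in all 10 the Nrf1 and LacZ libraries did not overlap, beside 33.7%. With Nrf2, 5 of 10 fell (*Ddit3*, *Trib3*, *Asns*, *Psat1* and *Phgdh*), beside 9.71% of all genes called lower. At any fold, all 10 were again lower at the adjusted p, beside 27.2%, and in all 10 the Nrf2 and LacZ libraries did not overlap, beside 29.8%. The 10 genes had a median log2 fold change of -1.06 with Nrf1 and -0.68 with Nrf2, and that of all genes was 0.005 and -0.002. None of the 10 rose, where 11.3% of all genes were called higher with Nrf1 and 9.04% with Nrf2. The shares of all genes, here and below, are given for scale and are no test of the set. The 10 genes were chosen with earlier results of these data known. The number of genes lower with Nrf2 moved with the scaling: with total reads as size factors it was 8, as *Atf4*, *Shmt2* and *Sesn2* then passed the fold cutoff, and the calls over all genes went from 1126 lower and 1048 higher to 1414 lower and 851 higher. The Nrf1 and Nrf2 comparisons share their LacZ libraries. The labels do not say whether libraries of a group came from separate cultures, so p-values measure the spread between these libraries, which may be technical.

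Most markers of other cell types moved in the same direction as the 10 genes. All 8 fibroblast markers fell with Nrf1 and 6 with Nrf2, and their summed level was 97809 to 99851 normalised reads with LacZ, 25091 to 27365 with Nrf1 and 51131 to 55540 with Nrf2. Most of that sum was *Col1a1*, with means of 91557.5 with LacZ, 24038.7 with Nrf1 and 49692.6 with Nrf2. Of 8 leukocyte markers, 7 fell in each comparison, with summed levels of 1674 to 2430, 981 to 1005 and 930 to 1033. The remaining marker, *Csf1r*, was higher with Nrf1 at any fold (log2 fold change 0.46, adjusted p = 0.00244, limma), with overlapping libraries. With Nrf2 its value was 0.10 (adjusted p = 0.498). Of 8 endothelial markers, 5 fell in each and 1 rose with Nrf2, with summed levels of 1435 to 1476, 1039 to 1147 and 1011 to 1248. Of 8 cardiomyocyte markers, 3 fell and 1 rose with Nrf1, and 0 were called with Nrf2, where at any fold 3 were lower and 4 higher at the adjusted and the unadjusted p of limma alike. No marker was at 0 in any group. In these bulk samples fewer cells of a type and less RNA per cell cannot be told apart, and the part of the other cell types in the results described here was not tested.

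**Figure D1:**
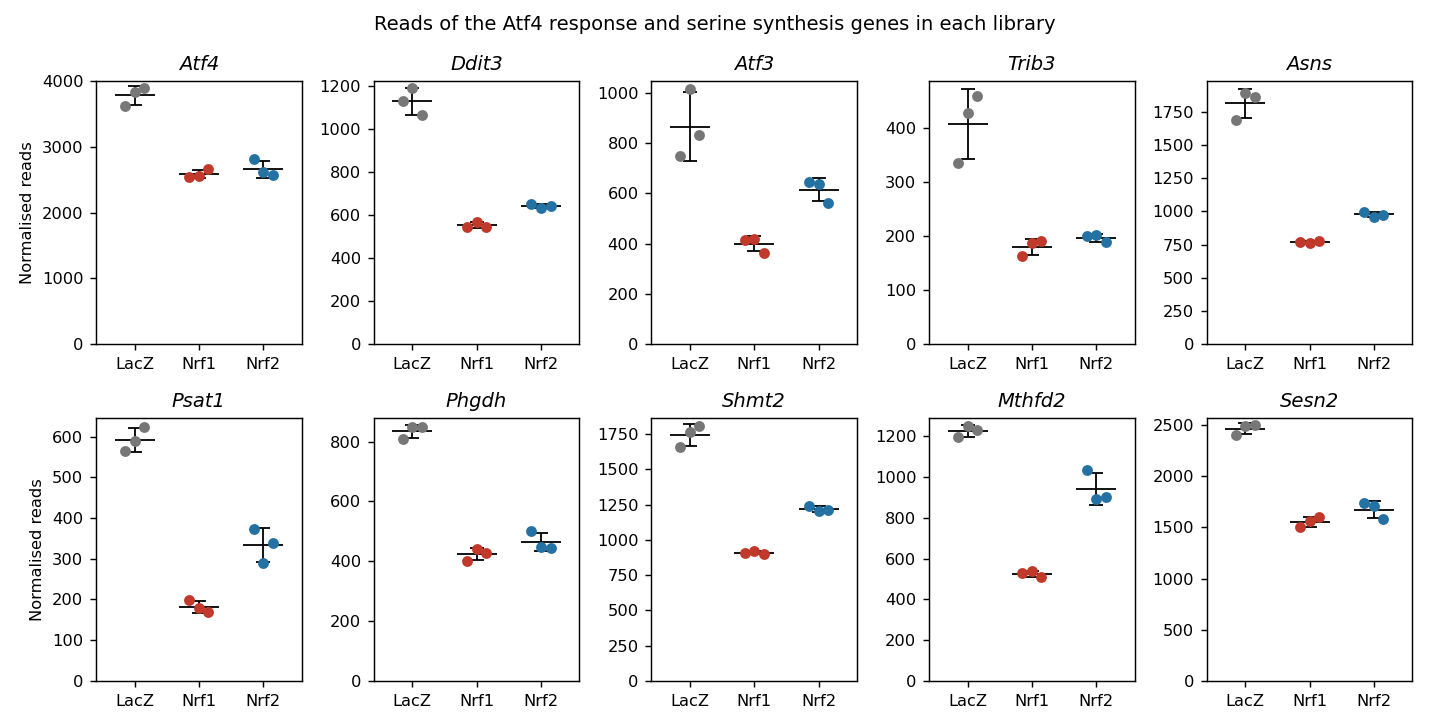
Normalised reads of each of the 10 genes (y axis, from 0) in the LacZ, Nrf1 and Nrf2 libraries (points, 3 per group, in order of depth), with the mean and SD of each group in black. In all 10 panels the LacZ libraries lie above the 6 others, and for *Atf4*, *Trib3* and *Sesn2* the Nrf1 and Nrf2 libraries overlap.

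*Atf4* itself stood at 3619.0, 3841.2 and 3896.0 normalised reads in the LacZ libraries, at 2536.6, 2561.3 and 2660.7 in the Nrf1 libraries and at 2809.6, 2613.4 and 2567.6 in the Nrf2 libraries. Every LacZ library was above the 6 others, whose ranges overlapped. The log2 fold change was -0.55 ± 0.039 (SE) with Nrf1 (adjusted p = 5.42e-10, limma) and -0.50 ± 0.039 with Nrf2 (adjusted p = 2.4e-09), both short of the fold cutoff of 1.5. With Nrf1 it lay close to that cutoff and passed it with total reads (-0.61) or the upper quartile (-0.59) as size factors. The direct difference between Nrf2 and Nrf1 had an interval from -0.04 to 0.13.

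*Ddit3*, which encodes the stress-induced factor Chop, had 1128.6, 1187.6 and 1064.4 normalised reads with LacZ, 545.4, 568.6 and 544.3 with Nrf1, and 648.7, 632.6 and 643.1 with Nrf2. The 3 groups did not overlap, and Nrf1 libraries were the lowest. The gene fell with Nrf1 (log2 fold change -1.03 ± 0.051 SE, adjusted p = 2.35e-12, limma) and with Nrf2 (-0.81 ± 0.048, adjusted p = 5.17e-11). *Trib3*, a pseudokinase induced by Atf4 and Chop that restrains their activity, had 335.7, 427.7 and 459.9 normalised reads with LacZ, 162.9, 187.3 and 190.9 with Nrf1, and 200.5, 202.1 and 189.0 with Nrf2. It fell in both (-1.16 ± 0.11 and -1.02 ± 0.10, adjusted p = 2.79e-08 and 1e-07, limma), and the Nrf1 and Nrf2 libraries overlapped.

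*Atf3*, a transcription factor induced early in many stresses, had 748.7, 1014.7 and 834.4 normalised reads with LacZ, 414.7, 418.4 and 364.7 with Nrf1, and 643.8, 638.7 and 562.2 with Nrf2. The 3 groups were still separate, with Nrf2 between the others. *Atf3* fell with Nrf1 (log2 fold change -1.10 ± 0.096 SE, adjusted p = 8.73e-09, limma), whereas with Nrf2 the log2 fold change was -0.48 ± 0.084 (adjusted p = 8.72e-05), short of the fold cutoff. Without LacZ library a, the lowest of its group, the Nrf2 value was -0.59 and passed.

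*Asns*, the asparagine synthetase, is a classical Atf4 target whose mouse promoter holds both motifs above. It had 1685.4, 1889.2 and 1864.5 normalised reads with LacZ, 768.8, 765.7 and 776.4 with Nrf1, and 998.4, 958.9 and 974.4 with Nrf2. Its Nrf1 libraries lay close together, with a coefficient of variation of 0.714%. It fell with Nrf1 (log2 fold change -1.23 ± 0.048 SE, adjusted p = 8.55e-14, limma) and with Nrf2 (-0.89 ± 0.045, adjusted p = 5.88e-12). *Sesn2*, a stress-induced leucine sensor that restrains mTORC1, had 2401.0, 2493.1 and 2499.8 normalised reads with LacZ, 1498.9, 1562.5 and 1597.3 with Nrf1, and 1735.8, 1705.2 and 1579.5 with Nrf2. It fell with Nrf1 (-0.67 ± 0.041, adjusted p = 5.68e-11, limma), and with Nrf2 the log2 fold change was -0.56 ± 0.040 (adjusted p = 9.17e-10), short of the fold cutoff. The Nrf1 and Nrf2 libraries of *Sesn2* overlapped.

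**Figure D2:**
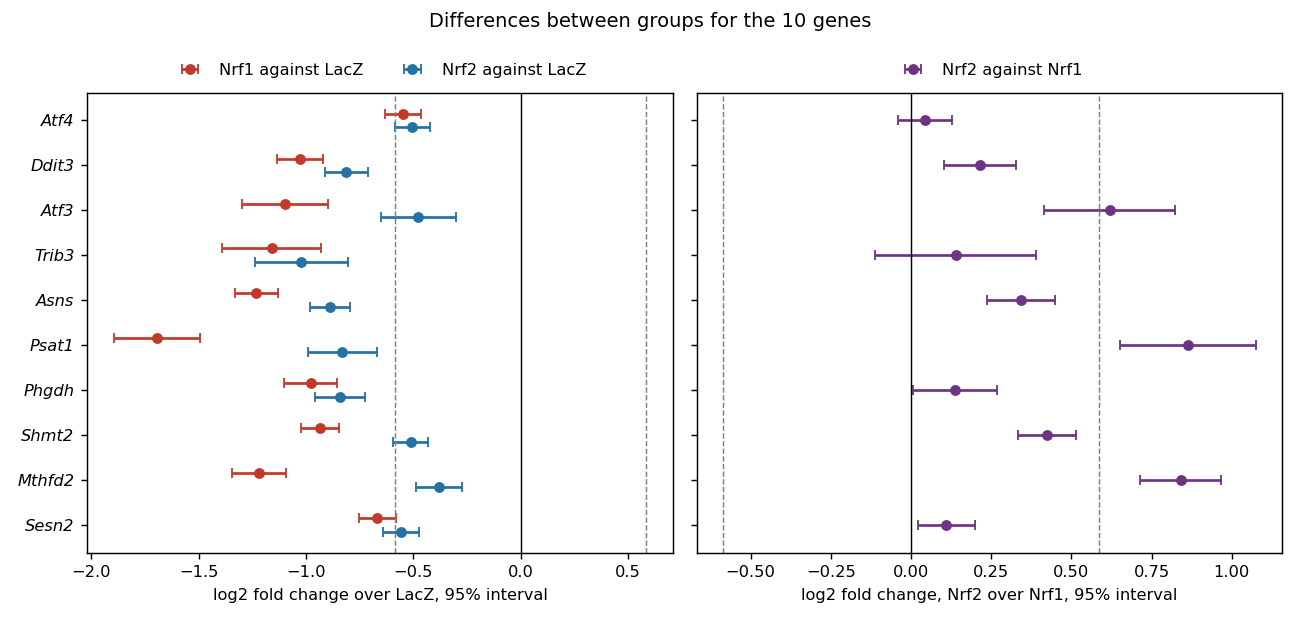
Log2 fold changes of the 10 genes (points) with 95% intervals from limma (bars), for Nrf1 and Nrf2 over LacZ on the left and for Nrf2 over Nrf1 on the right; dashed lines mark a fold change of 1.5. All points on the left lie below 0, from -1.69 for *Psat1* with Nrf1 to -0.38 for *Mthfd2* with Nrf2, and on the right *Psat1*, *Mthfd2* and *Atf3* lie past the dashed line.

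Of the enzymes of serine synthesis, *Phgdh* catalyses the first step. It had 809.0, 847.5 and 847.5 normalised reads with LacZ, 401.5, 441.8 and 427.6 with Nrf1, and 500.4, 448.8 and 445.3 with Nrf2. It fell in both, by log2 fold changes of -0.98 ± 0.059 (SE) and -0.84 ± 0.056 (adjusted p = 4.12e-11 and 2.93e-10, limma). The direct difference between them was 0.14 (interval 0.01 to 0.27, adjusted p = 0.0711).

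*Psat1*, the aminotransferase of the next step, had 564.8, 588.2 and 623.5 normalised reads with LacZ, 197.9, 179.5 and 168.1 with Nrf1, and 373.7, 288.7 and 338.1 with Nrf2. The groups were well apart, with the Nrf1 libraries at 28.4 to 33.4% of the LacZ mean and the Nrf2 libraries at 48.8 to 63.1%. *Psat1* fell with Nrf1 by more than any other of the 10 genes (log2 fold change -1.69 ± 0.096 SE, adjusted p = 1.73e-11, limma) and also with Nrf2 (-0.83 ± 0.077, adjusted p = 3.58e-08). *Psph*, the phosphatase of the last step, was named for its place in the route after its values were seen. It was at 73.7% ± 1.40 (SD, n = 3) of the LacZ mean with Nrf1 and at 101% ± 6.01 with Nrf2, and was called in neither comparison. At any fold it was lower with Nrf1 (log2 fold change -0.44, adjusted p = 7.61e-06, limma).

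*Shmt2* moves the carbon of serine onto folate in mitochondria. It had 1657.3, 1767.9 and 1804.0 normalised reads with LacZ, 905.2, 919.8 and 902.1 with Nrf1, and 1240.3, 1204.8 and 1213.2 with Nrf2, with no overlap between groups. It fell with Nrf1 (log2 fold change -0.94 ± 0.043 SE, adjusted p = 6.66e-13, limma), and with Nrf2 the log2 fold change was -0.51 ± 0.040 (adjusted p = 2.66e-09), short of the fold cutoff.

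*Mthfd2*, which oxidises the folate-bound carbon made by Shmt2, had 1197.0, 1251.6 and 1232.7 normalised reads with LacZ, 531.2, 537.4 and 508.8 with Nrf1, and 1034.8, 890.7 and 905.2 with Nrf2. It fell with Nrf1 (log2 fold change -1.22 ± 0.059 SE, adjusted p = 1.85e-12, limma). With Nrf2 its log2 fold change was the smallest of the 10, -0.38 ± 0.051 (adjusted p = 4.34e-06), short of the fold cutoff.

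The effects of Nrf1 and Nrf2 were compared directly in the same fit. Of the 10 genes, 3 were higher with Nrf2 than with Nrf1, beside 11% of all genes, and none was lower, beside 4.37%. *Psat1* differed by 0.86 ± 0.10 (log2, SE, adjusted p = 7.78e-07, limma), *Mthfd2* by 0.84 ± 0.060 (adjusted p = 9.93e-10) and *Atf3* by 0.62 ± 0.097 (adjusted p = 2.66e-05). The call of *Atf3* rested on Nrf1 library c, since without it the difference was 0.56, short of the fold cutoff. At any fold, 7 of 10 were higher at the adjusted p, beside 27.5% of all genes, and 7 of 10 did not overlap, beside 31.4%. *Shmt2* (0.42 ± 0.043), *Asns* (0.34 ± 0.051), *Ddit3* (0.21 ± 0.054) and *Sesn2* (0.11 ± 0.042, adjusted p = 0.0321, limma) passed the adjusted p below the fold cutoff. The Nrf1 and Nrf2 libraries of *Sesn2* overlapped, whereas those of *Phgdh*, which missed the adjusted p, did not. For *Atf4*, *Trib3* and *Phgdh* the difference missed the adjusted p, with intervals of the log2 difference from -0.04 to 0.13, from -0.11 to 0.39 and from 0.01 to 0.27. The median difference of the 10 genes was 0.28.

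Other genes of the serine to one-carbon route and of glycine and proline metabolism were taken from a list of 19, of which 17 passed the filter on low reads. With Nrf1, 4 fell and 1 rose, with a median log2 fold change of -0.27, and with Nrf2 1 fell and 1 rose, with a median of 0.01. At any fold, 7 were lower and 3 higher with Nrf1 at the adjusted p of limma, and 4 lower and 4 higher with Nrf2. *Aldh1l2*, a mitochondrial enzyme that oxidises formyl-folate, fell from 299.7 ± 11.7 normalised reads (SD, n = 3) with LacZ to 81.1 ± 6.13 with Nrf1 and 149.8 ± 12.9 with Nrf2 (log2 fold change -1.89 with Nrf1, adjusted p = 1.92e-11, and interval -1.18 to -0.82 with Nrf2, adjusted p = 8.22e-09, limma). *Mthfd1l*, which releases formate from mitochondria, fell with Nrf1 (-1.25, adjusted p = 8.69e-11), as did *Pycr1*, of proline synthesis (-1.36, adjusted p = 1.13e-07), and *Sfxn1*, the mitochondrial serine carrier (-0.59). *Mthfd1l* and *Sfxn1* were also lower with Nrf2, short of the fold cutoff (-0.48 and -0.52, adjusted p = 5.99e-06 and 1.45e-06, limma). *Pycr1* was at -0.11 with Nrf2 (adjusted p = 0.403). For *Sfxn1* the direct difference between Nrf2 and Nrf1 was 0.07 (adjusted p = 0.415). The gene that rose in both comparisons was *Gldc*, of glycine cleavage, at low levels of 20.6 normalised reads with LacZ, 36.2 with Nrf1, where the libraries overlapped with those of LacZ, and 42.8 with Nrf2. *Gldc* falls outside the rule for naming genes and was chosen after its values were seen.

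The cytosolic enzymes of the same chemistry, likewise named for their place in the route after their values were seen, were not called. *Shmt1* was at 75.8% ± 2.30 (SD, n = 3) of the LacZ mean with Nrf1 and at 108% ± 4.34 with Nrf2. *Mthfd1* was at 117% ± 3.48 and 113% ± 4.27. Below the fold cutoff, *Shmt1* was lower with Nrf1 (log2 fold change -0.40, adjusted p = 3.35e-05, limma). *Mthfd1* was higher with Nrf1 (0.23, adjusted p = 0.000448, limma) and with Nrf2 (0.17, adjusted p = 0.00529). *Mthfd2l*, the mitochondrial paralogue of *Mthfd2* and named in the same way, was not called either, at 64.8 ± 9.0 normalised reads with LacZ, 54.1 ± 8.34 with Nrf1 and 69.1 ± 14.3 with Nrf2 (log2 fold change -0.27 with Nrf1, interval -0.66 to 0.12). Between Nrf2 and Nrf1, *Aldh1l2*, *Mthfd1l* and *Pycr1* were higher with Nrf2 by 0.89, 0.77 and 1.25 on the log2 scale (adjusted p = 2.85e-06, 1.97e-07 and 4.75e-07, limma). *Shmt1* and *Psph* were also higher, short of the fold cutoff, by 0.50 and 0.45 (adjusted p = 1.87e-06 and 6.1e-06). *Mthfd1* was at -0.06 (adjusted p = 0.31).

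**Figure D3:**
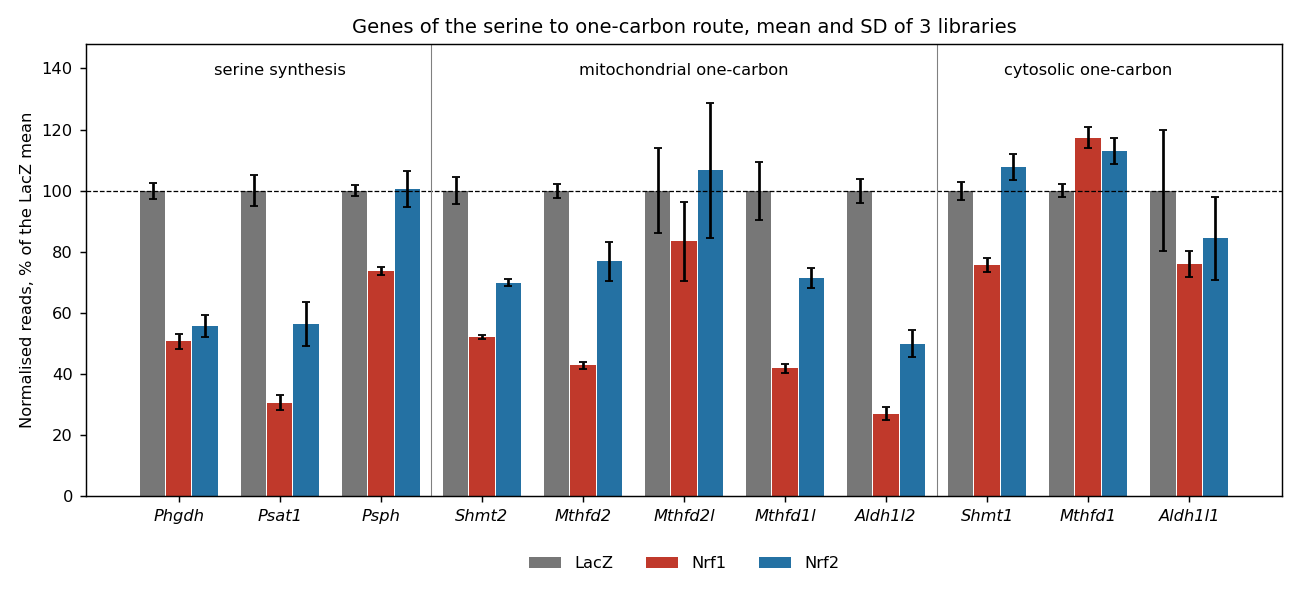
Normalised reads of 11 genes of the serine to one-carbon route in percent of the LacZ mean (y axis, from 0; bars are means and black lines the SD of 3 libraries), ordered by step and compartment. The Nrf1 bars of *Shmt2*, *Mthfd2*, *Mthfd1l* and *Aldh1l2* lie between 27.1% and 52.2%, that of *Mthfd2l* at 83.5%, and those of the 3 cytosolic genes between 75.8% and 117%.

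Related genes outside the 10 were read from lists of the *Atf4* response. Of 16 other Atf4-linked stress genes, 14 were tested. With Nrf1, 8 fell and 0 rose (median -0.63). Among those with a group mean of at least 100, the log2 fold change was largest for *Stc2*, a secreted glycoprotein induced by stress (-1.64), *Bbc3*, the cell death gene Puma (-0.94), *Atf5*, a factor of the mitochondrial stress response (-0.86), and *Ddit4*, an inhibitor of mTORC1 (-0.85). *Cth*, of cysteine synthesis, named after its values were seen, had a lower level, 48.4 normalised reads with LacZ, and fell by 1.29 on the log2 scale with Nrf1 and by 1.33 with Nrf2. With Nrf2, 5 fell and 1 rose (median -0.44), with *Stc2* at -1.34, *Chac1*, which degrades glutathione, at -0.85 and *Bbc3* at -0.70. The gene that rose was *Gpt2*, the mitochondrial alanine aminotransferase, from 176 ± 13.3 to 294 ± 34.8 normalised reads (0.74, adjusted p = 3.13e-06, limma), and it stood at 173 ± 7.97 with Nrf1. By the adjusted p of limma alone, 12 of the 14 were lower and 0 higher with Nrf1, and 12 lower and 1 higher with Nrf2.

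Of 10 amino acid transporters, 6 fell with Nrf1 (median -0.60), among them *Slc6a9*, for glycine (-1.15), the large neutral amino acid transporter *Slc7a5* (-1.06) and its partner chain *Slc3a2* (-0.60), and *Slc1a5*, for glutamine (-0.97). With Nrf2, 2 fell and 1 rose (median -0.19). By the adjusted p of limma alone, 8 were lower and 1 higher with Nrf1, and 6 lower and 4 higher with Nrf2. *Slc7a11*, the cystine transporter that is a known target of both Atf4 and Nrf2, rose from 434 ± 37.2 normalised reads (SD, n = 3) with LacZ to 1869 ± 100.3 with Nrf2 (log2 fold change 2.11 ± 0.066 SE, adjusted p = 5.87e-15, limma) and stood at 355 ± 33.1 with Nrf1. *Slc6a9* was 346 ± 14.3 with LacZ, 157 ± 19.7 with Nrf1 and 421 ± 29.4 with Nrf2. Its Nrf2 level was above Nrf1 by 1.44 (adjusted p = 1.73e-10, limma). It was above LacZ by 0.29 (adjusted p = 0.00247), short of the fold cutoff. For *Slc7a11* with Nrf1 the log2 fold change over LacZ was -0.29 (adjusted p = 0.00569), also short of that cutoff.

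The synthetases that charge tRNAs, many of them Atf4 targets, gave 20 genes in the files. With Nrf1, 1 fell, *Cars* for cysteine (-0.88), and 1 rose, *Hars* for histidine (0.95), and 0 were called with Nrf2. At any fold, 9 were lower and 8 higher with Nrf1, and 10 lower and 5 higher with Nrf2, at the adjusted and at the unadjusted p of limma under 0.05 alike. Of 9 other genes of the ATF, Tribbles and sestrin families, 0 were called in either comparison, and at any fold 1 was lower and 2 higher with Nrf1, and 2 lower and 1 higher with Nrf2, again at the adjusted and the unadjusted p of limma alike.

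Upstream of *Atf4*, 1 of 7 genes was called in each comparison with LacZ, among 4 eIF2alpha kinases, 2 subunits of its phosphatase and *Eif2s1*, which encodes eIF2alpha. *Eif2ak2*, the kinase PKR that senses double-stranded RNA and is induced by interferon, fell from 4474 ± 386 normalised reads (SD, n = 3) with LacZ to 1637 ± 13.9 with Nrf1 and 2302 ± 149 with Nrf2 (log2 fold changes -1.45 and -0.95, adjusted p = 4.84e-14 and 1.35e-11, limma). The other 6 lay between -0.25 and 0.43 in both comparisons. At any fold, 2 of the 7 were lower and 4 higher with Nrf1 at the adjusted p of limma. With Nrf2, 2 were lower and 2 higher. Named after their values were seen, the kinase genes *Eif2ak1* and *Eif2ak4* were higher in both. The log2 fold changes were 0.37 and 0.36 for *Eif2ak1* (adjusted p = 1.4e-07 and 2.77e-07, limma). For *Eif2ak4* they were 0.43 and 0.16 (adjusted p = 1.42e-05 and 0.0488). The phosphorylation of eIF2alpha and the amount of Atf4 protein were not measured.

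**Figure D4:**
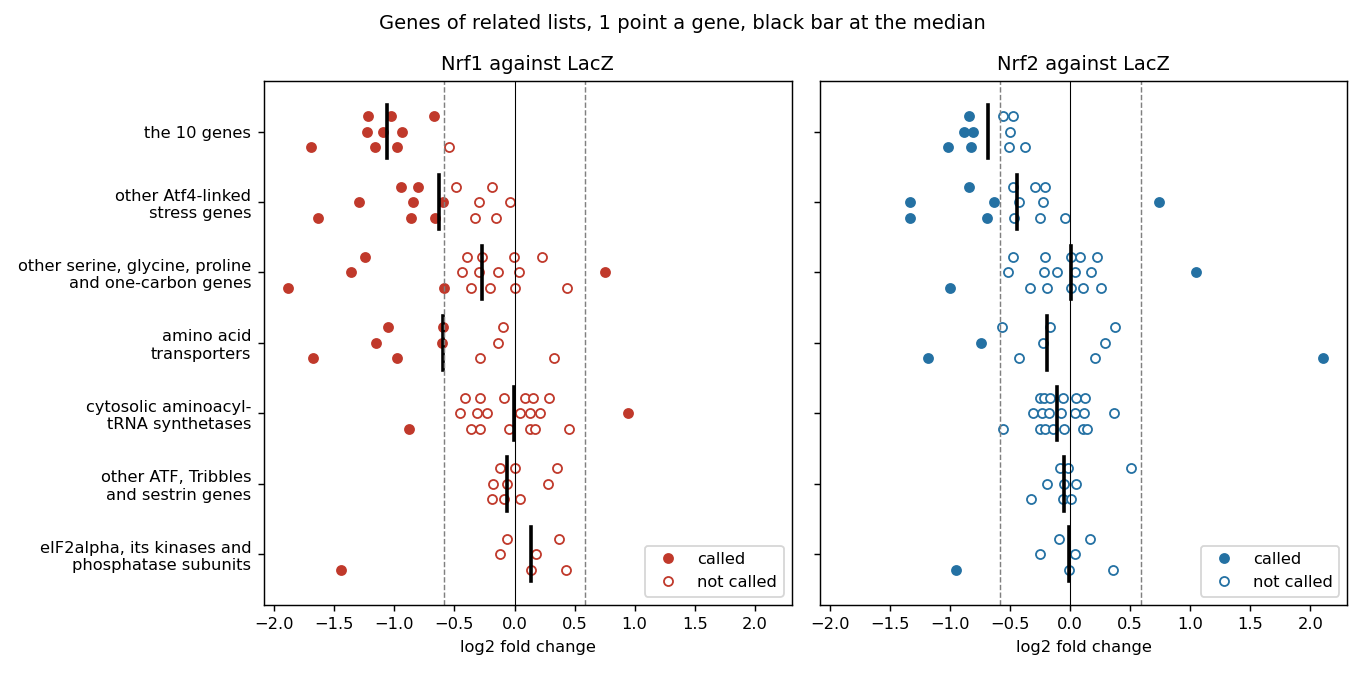
Log2 fold changes of the genes in 7 lists (1 point per gene, filled where called; black bars are medians, dashed lines a fold change of 1.5) for Nrf1 (left) and Nrf2 (right) over LacZ. The 10 genes have medians of -1.06 and -0.68, the other Atf4-linked stress genes -0.63 and -0.44, and the synthetases about 0 and -0.11.

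Genes whose log2 normalised reads followed *Atf4* most closely over the 9 libraries were ranked among the 8392 genes averaging 100 normalised reads or more. They were *Phgdh* (Pearson's r = 0.993), *Aars* (0.992), *Sesn2* (0.991), *Gnl3* (0.991) and *Sars* (0.991), and *Trib3* was at rank 16 (0.985). *Asns* ranked 76 (0.971), *Ddit3* 84 (0.970), *Shmt2* 581 (0.914), *Psat1* 888 (0.878), *Atf3* 1178 (0.836) and *Mthfd2* 1472 (0.780). For *Psat1*, the closest were *Cit* (0.993), *Cxcl10*, *Igfbp4*, *Ddit4* and *Lrp1* (0.992 each). These values describe 9 points in 3 groups that share their size factors, and they mostly follow the differences between groups.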

How the data were processed

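RNA of 9 NRVM libraries was compared in 3 groups named by the labels. The organism field of the labels gives mouse, but the growth protocol and the genome build give rat. Per the submitters' processing notes and the paper's methods, the tools were FastQC 0.11.4, HISAT2 2.0.4 on Rnor 6.0, SAMtools 0.1.18, featureCounts 1.6.0 and edgeR 3.20.5.

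The authors deposited 3 tables, 1 per pairwise comparison. Their signal columns hold, for each group, the authors' mean of read counts after division by size factors. Further columns hold the authors' fold changes and p-values of their own comparisons and were not used. The tables hold 0 unused columns of single samples.

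Each group mean is a sum of whole reads, each weighted by the size factor of its library, and each group stands in 2 tables with different size factors. Solving both for whole reads gave 1 solution for all but 1 gene, which was left out, as were 26 symbols of months, written as dates in some tables. Size factors recomputed from the reads differed from those of the tables by at most 0.00787%. No library is tied to a sample number. The steps were tested on simulated data.

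Reads were analysed with limma 3.58.1 (voom, R 4.3.3) over all 9 libraries, with median-of-ratios size factors and genes above 1 CPM in at least 3 libraries. Intervals are 95%. In lists, genes were named where called with a group mean of at least 100, up to 4 by fold change, and 5 by correlation for *Atf4* and *Psat1*. The 10 genes and the lists were chosen with earlier results of these data known. The alternatives tried were other size factors, filters, fits and cutoffs, and leaving out each library.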

Additional observations from a re-analysis of the deposited data

How the results depend on the processing

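The log2 fold changes of the 10 genes kept their direction in all 3 comparisons under every alternative run, and moved by at most 0.144 with Nrf1, 0.148 with Nrf2 and 0.106 between Nrf2 and Nrf1. At a fold cutoff of 2, 1079 genes were lower (6 of the 10 genes, as *Phgdh*, *Shmt2* and *Sesn2* were no longer called) and 480 higher with Nrf1, 452 lower (1 of the 10 genes, *Trib3*) and 506 higher with Nrf2, and 133 lower and 646 higher (0 of the 10 genes) with Nrf2 against Nrf1 by limma. With no fold cutoff, the counts were 3730 (10 of the 10 genes) and 4001 with Nrf1, 3153 (10 of the 10 genes) and 3381 with Nrf2, and 3208 and 3186 (7 of the 10 genes) with Nrf2 against Nrf1. With total reads as size factors, 8 of the 10 genes were lower with Nrf2, and with total reads or the upper quartile 10 of the 10 were lower with Nrf1. Over all genes, 2159 were then lower and 1090 higher with Nrf1 for total reads, and 2087 and 1155 for the upper quartile. In the main run these were 1929 and 1311. With Nrf2 and total reads, 1414 of all genes were lower and 851 higher. Leaving out each library in turn gave 1838 to 1937 genes lower and 1261 to 1339 higher with Nrf1 (9 to 9 of the 10 genes), 1005 to 1126 lower and 926 to 1051 higher with Nrf2 (5 to 6, the 6 without LacZ library a), and 491 to 515 lower and 1163 to 1279 higher with Nrf2 against Nrf1 (2 to 3, the 2 without Nrf1 library c). Why these libraries changed the call of *Atf3* was not tested. No paired analysis was possible because the deposited columns are group means that carry no replicate numbers. At 7874461 to 11905658 reads per library, genes below about 1 CPM were not tested.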

Other observations

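Mitochondrial chaperones and proteases, which accompany the mitochondrial stress response, gave 7 genes. With Nrf1 and with Nrf2 alike, 1 rose and 0 fell. The gene that rose was *Afg3l2*, a subunit of the inner membrane protease, at 1377 ± 69.2 normalised reads (SD, n = 3) with LacZ, 2374 ± 13.3 with Nrf1 and 2707 ± 157 with Nrf2 (log2 fold changes 0.79 and 0.98, adjusted p = 3.37e-11 and 1.79e-12, limma). At any fold, 2 were lower and 4 higher with Nrf1, and 1 lower and 5 higher with Nrf2, at the adjusted and the unadjusted p of limma under 0.05 alike.

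Libraries of a group differed more in *Atf3*, *Trib3* and *Psat1* than in most genes of like level. The SD within groups on the log2 scale was 0.157 for *Atf3*, above that of 98.2% of 1988 genes of like level, 0.158 for *Trib3*, above 93.2% of 1858, and 0.134 for *Psat1*, above 92.9% of 2080. For *Mthfd2*, *Atf4*, *Sesn2*, *Asns* and *Phgdh* it was above that of 52.4% to 75.5% of such genes, and for *Ddit3* and *Shmt2* above 28.4% and 22.5%. Deviations from the group means tended to go together, with a median Pearson's r of 0.465 over the 45 pairs of the 10 genes and 38 of 45 above 0. In LacZ library a, 9 of the 10 genes were below the group mean, and in Nrf2 library a all 10 were above it. These are descriptions over 9 libraries that share their size factors. Correlations and signs of deviations were not computed for other genes. Whether other genes of these libraries deviated in the same way was therefore not tested.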
